A study of Zea mays with 18 samples.

Results

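The comparison described here is the response of wild-type maize roots to water stress. A feature is a member if 3 or more of the 18 root libraries of the series gave it 1 FPKM or more. This left 27530 of 55661 features, read in the 3 water stress and the 3 control libraries of the wild type. FPKM is a read level scaled to transcript length and library size. Of the features kept, 23874 were annotated genes and 18264 of these carried a protein name in the annotation. All counts of gene groups refer to these annotated genes.

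Both groups were WT plants of the inbred line B73, grown for 4 weeks in vermiculite, and the tissue was the whole root system. Plants under water stress (WS) received complete nutrient solution on the day of transplanting and no water or solution afterwards, whereas control plants (CT) received the complete solution 3 times per week. Water and nutrients were therefore withheld together from WS plants, and their effects cannot be told apart in WS against CT. A further treatment of the same line, nitrogen deficiency (0N), kept the irrigation of CT but had its 1 mM KNO3 replaced by KCl, and it is used here as a further reference. The mutant *zmccd8*, a Ds insertion in an exon of the strigolactone synthesis gene *ZmCCD8* in the B73 background, received the same WS and CT treatments. By the study's RNA methods each replicate was a pool of tissue from 4 plants, so p-values measure the spread between such pools. In pools of whole roots, fewer cells of a type and less RNA per cell cannot be told apart.

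Roots that run short of water make abscisic acid (ABA), whose committed step is the cleavage of epoxycarotenoids by NCED enzymes. In the core pathway ABA binds PYR/PYL receptors, which then hold 2C phosphatases and free SnRK2 kinases, and these kinases activate bZIP factors of the ABF class. Typical targets in drying tissue are late embryogenesis abundant (LEA) proteins, dehydrins, chaperones and enzymes that make protective solutes, while cell division and wall loosening are typically slowed.

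The WS libraries held 36863211, 43429912 and 32115558 reads assigned to features, against 30104083, 36144437 and 33826090 in the CT libraries. Markers of the other tissue or cell classes a root sample could hold gave the following sums. Leaf genes summed to between 309 and 358 FPKM in WS libraries and between 215 and 257 FPKM in CT libraries, and 10 of the 42 in the annotation were at 0 in all 6 libraries. Meristem genes (histones, B-type cyclins and a replication clamp) summed to between 3416 and 3921 FPKM under WS and between 5402 and 8308 FPKM under CT. Xylem genes overlapped, with between 221 and 327 FPKM under WS and between 224 and 313 FPKM under CT. The 1 tested root hair marker gave no call, and the summed level of both in the annotation was under 4 FPKM in every library.

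A gene is called higher or lower here when its limma adjusted p was at most 0.05 and its log2 difference of FPKM + 1, WS minus CT, was at least 1 in size. By that rule 1783 annotated genes were higher under WS, which is 7.47% of those tested, and 2454 were lower, which is 10.3%. Over all 27530 features, transcripts without an annotated gene included, 7.41% were higher and 10.4% lower, which makes 17.8% in all. The rises reached further than the falls. A log2 difference of 3 or more was found for 218 rises and 179 falls, one of 4 or more for 123 rises and 58 falls, and one of 5 or more for 66 rises and 17 falls. Of the genes called higher, 467 averaged under 1 FPKM in CT libraries, and of those called lower, 503 averaged under 1 FPKM in WS libraries. The WS and CT libraries did not overlap in 54.7% of all annotated genes and 53.3% of all features, so a lack of overlap alone separated little. The median log2 difference over all annotated genes was -0.0037, which is the value to read the medians of the groups against. Groups were formed from protein names and domains, and smaller groups inside them (NCED enzymes, ferritins and others) were formed after the values were seen, as was the choice of each gene introduced as a further gene. HSP101, Expansin-B12, lipoxygenase 2.3, glutamate dehydrogenase, BHLH6 and HB2 overlap another feature on their strand, so that their counts are uncertain. Coordinates refer to the B73 assembly Zm-B73-REFERENCE-NAM-5.0.

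**Figure D1:**
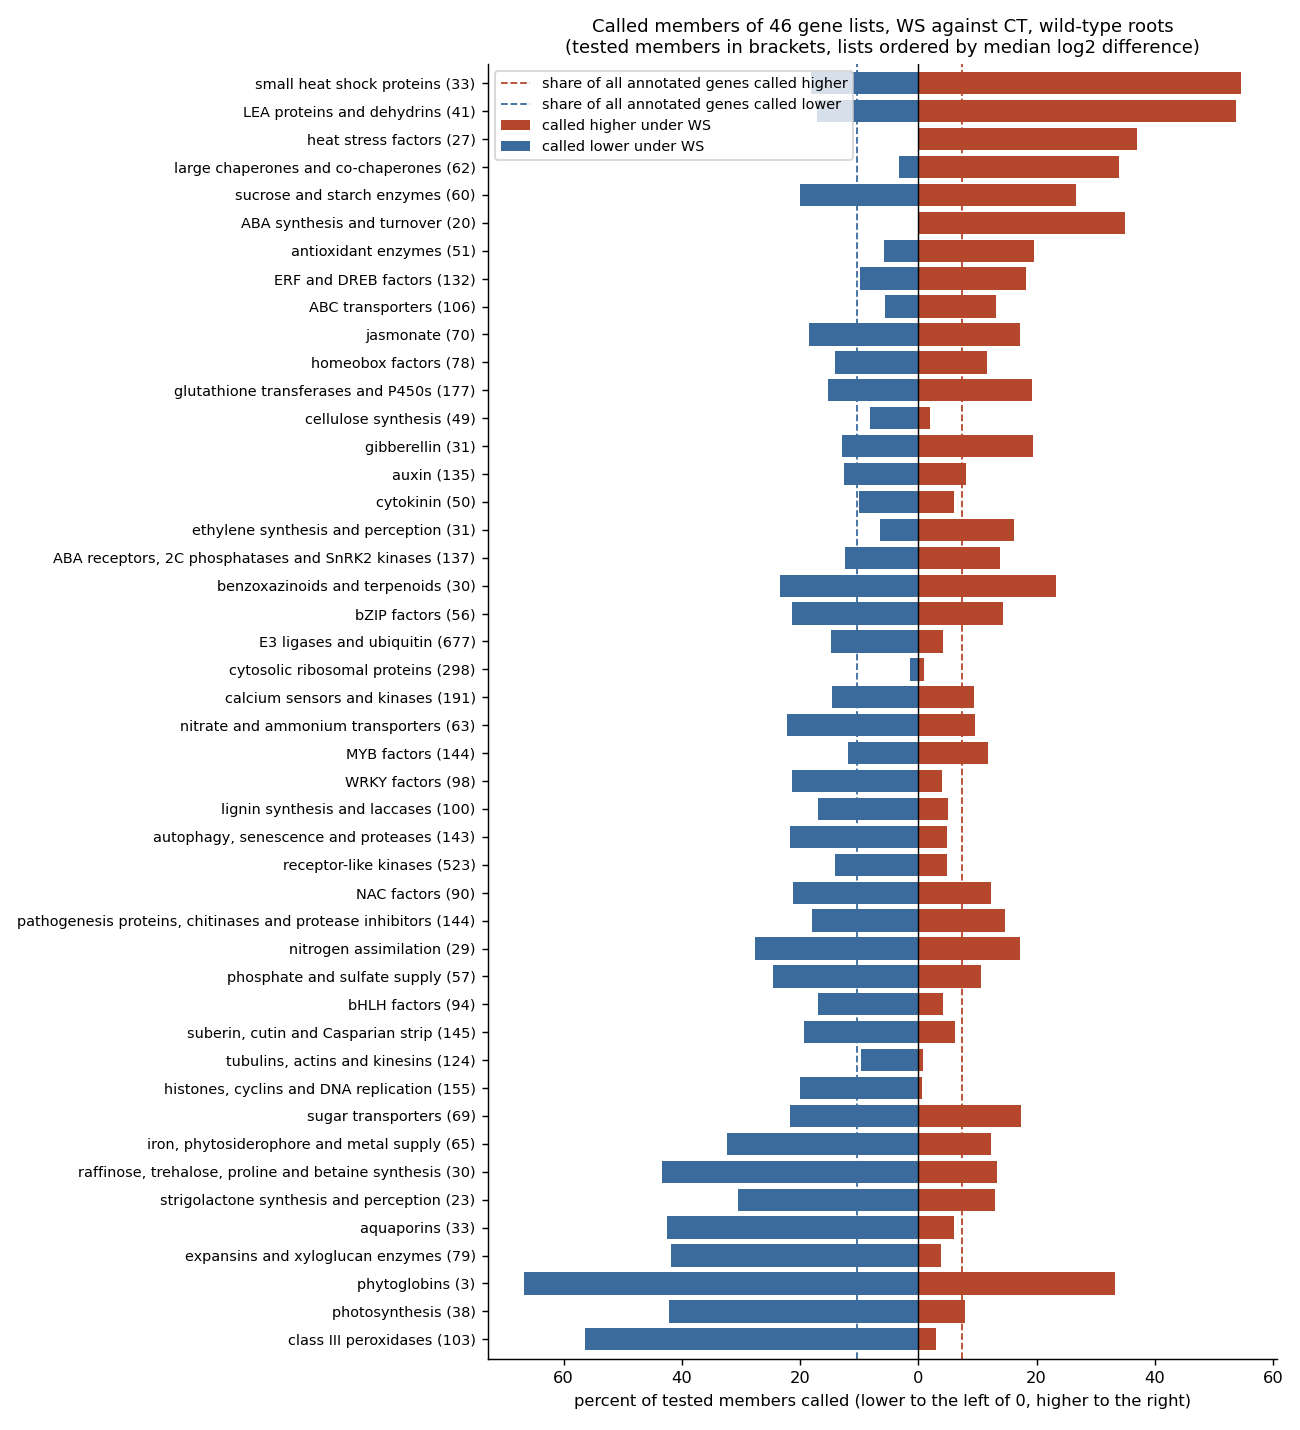
Percent of tested members called higher (right of 0) and lower (left of 0) under WS in each of 46 gene groups of WT roots, with the shares over all annotated genes, 7.47% and 10.3%, as dashed lines. Small heat shock proteins, LEA proteins, heat stress factors and chaperones stand at the top, and aquaporins, expansins, photosynthesis genes and class III peroxidases at the bottom.

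Among enzymes of ABA synthesis and turnover all calls were higher under WS. Of 20 tested members of this group 7 were called higher, 0 lower and 13 were not called, with a median log2 difference of 0.27. The largest rise was that of Zm00001eb300240 (chromosome 7, 6245553 to 6247755), annotated by the rice enzyme NCED4. It had 15.04, 18.8 and 10.6 FPKM in WS libraries, against 0.312, 0.360 and 0.234 FPKM in CT libraries, so the groups stood far apart (log2 difference 3.57, SE 0.22, adjusted p 0.000136). In all, 3 of 5 tested NCED enzymes rose and the summed level of the 5 was between 20.2 and 36.4 FPKM under WS and between 3.70 and 5.34 FPKM under CT. Another 12 NCED entries did not pass the filter. Among the 5 tested ABA 8'-hydroxylases, which inactivate the hormone, 2 were called higher. The further gene Zm00001eb176720 had 3.47, 5.70 and 1.93 FPKM under WS and at most 0.223 FPKM under CT (log2 difference 2.003, adjusted p 0.00326). By contrast the most abundant of these hydroxylases, Zm00001eb251960, overlapped between the groups, with 30.6, 43.7 and 16.8 FPKM under WS and 19.2, 26.7 and 24.3 FPKM under CT. The call of the second hydroxylase, Zm00001eb063780, was kept in only 1 of 6 fits that left out a library, and without WT_WS replicate 2 its log2 difference was 1.80.

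Steps of ABA perception moved in opposite directions. Receptors were lower or did not pass, with 0 of 10 called higher, 5 lower and a median of -1.001. Zm00001eb239670 (chromosome 5, 155389412 to 155390487), named after the rice receptor PYL9, fell most. It had 0.269, 0.383 and 0.718 FPKM in WS libraries, against 10.2, 11.88 and 13.1 FPKM in CT libraries (log2 difference -3.13, SE 0.18, adjusted p 0.000111). The further receptor Zm00001eb013780 had 5.75, 8.21 and 7.51 FPKM under WS and 76.1, 52.0 and 59.7 FPKM under CT (-2.96). Another, Zm00001eb350630, was at a like level in both groups, with between 61.3 and 77.3 FPKM under WS and between 59.7 and 68.3 FPKM under CT. The summed level of the receptors was between 190.8 and 218 FPKM under WS and between 397 and 409 FPKM under CT.

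The 2C phosphatases, a large family of which only one clade binds ABA receptors, had 17 of 111 members higher and 10 lower, with a median of -0.02. Zm00001eb419870 (chromosome 10, 103573066 to 103578519), named after rice phosphatase 2C 37, rose most and overlaps another feature on its strand, so its reads may be split. It had 28.5, 25.1 and 47.3 FPKM under WS, against 0.0878, 0.165 and 0.0951 FPKM under CT (log2 difference 4.90, SE 0.25, adjusted p 6.5e-05). The further phosphatases Zm00001eb309920 (2C 68) and Zm00001eb012040 (2C 30) differed by 3.96 and 3.67. Among 15 SnRK2 kinases 2 were higher and 2 lower, and the further gene Zm00001eb392580 (SAPK1 of rice) had 49.9, 49.4 and 64.2 FPKM under WS and 10.4, 11.3 and 12.6 FPKM under CT. Of 12 bZIP factors of the ABF class 6 rose and 0 fell, with a median of 1.05. Zm00001eb279120, bZIP 46 of rice, had 12.6, 10.7 and 13.2 FPKM under WS and 1.66, 1.96 and 1.28 FPKM under CT (log2 difference 2.32, adjusted p 0.000236). All 3 tested homeobox factors named HOX22 or HOX24, which in rice respond to drought, rose by between 3.65 and 4.18.

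**Figure D2:**
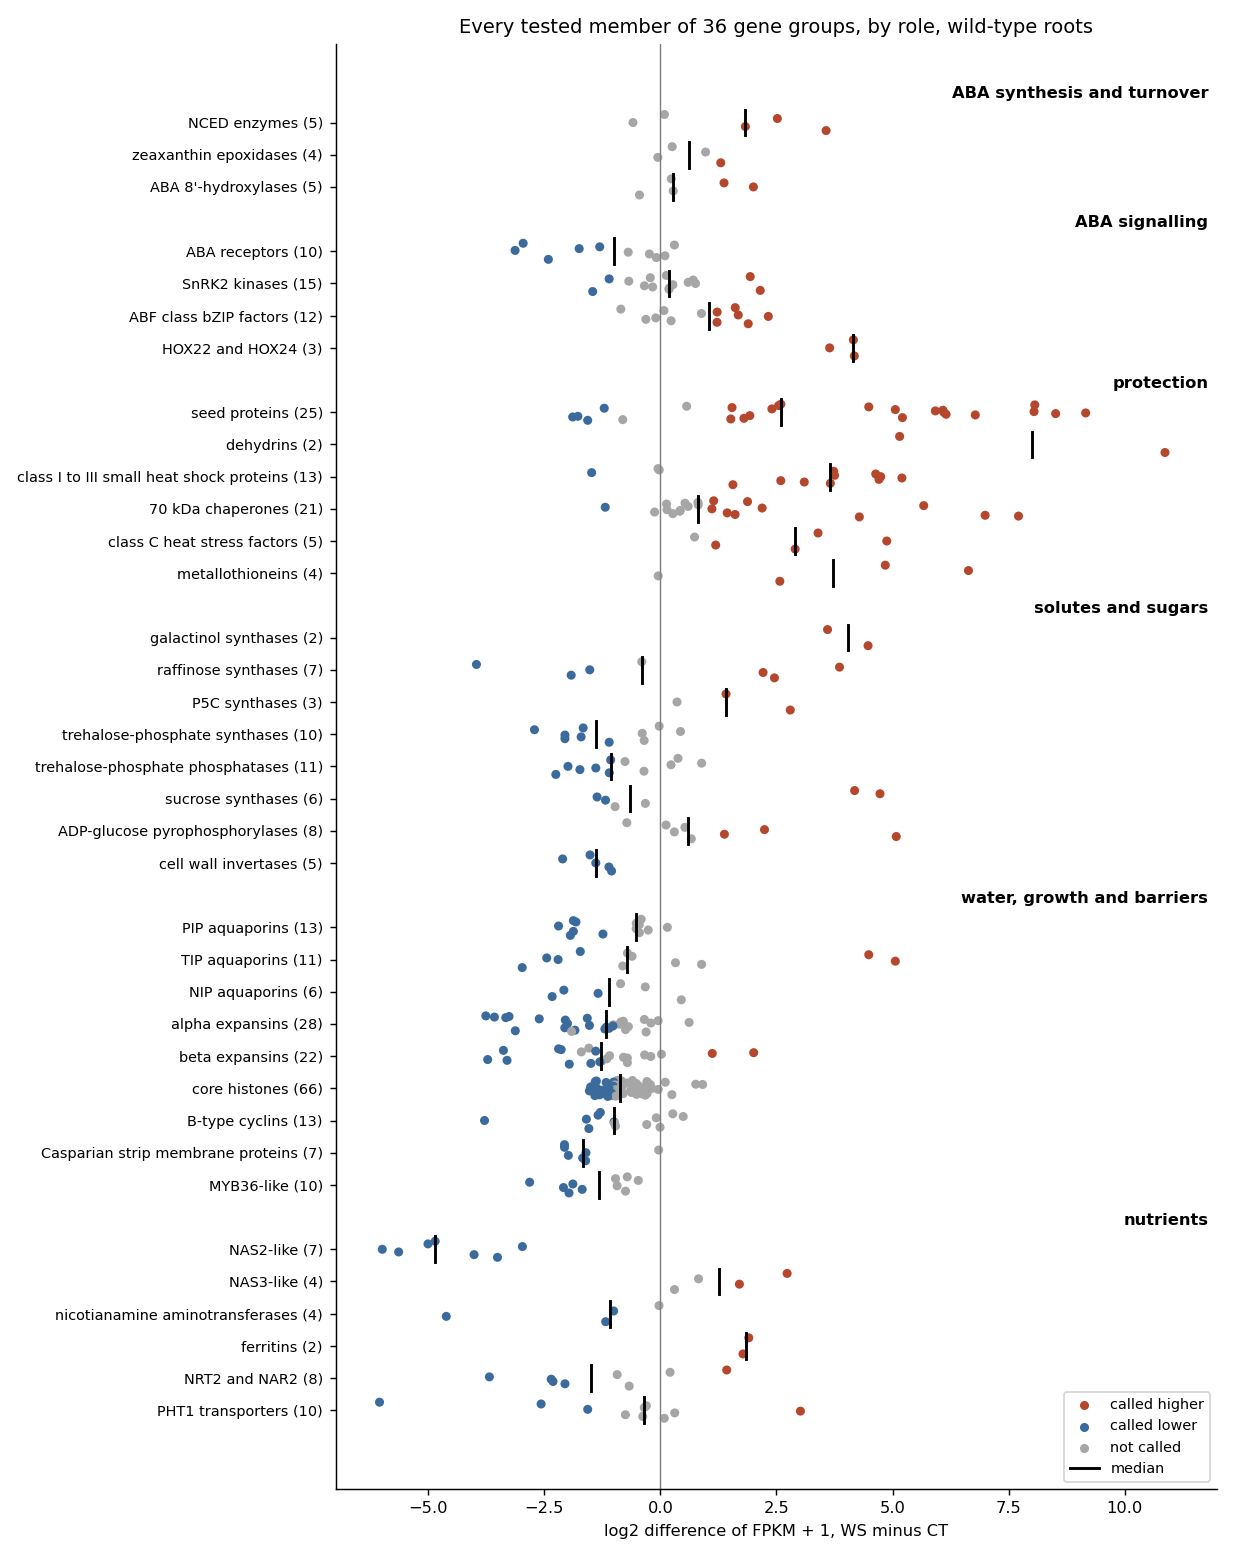
Log2 difference of FPKM + 1 (WS minus CT, x axis) of every tested member of 36 gene groups in WT roots, ordered by role, with called genes in colour and group medians as vertical bars. Within ABA signalling every called receptor lies left of 0 and every called ABF or HOX22/HOX24 gene to the right, and within the nutrient groups all NAS2-like genes and both ferritins lie on opposite sides.

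Protective proteins of drying seeds made up 4 of the 6 largest rises among genes with a protein name. In the LEA group, which includes dehydrins, 22 of 41 members were called higher and 7 lower, with a median of 1.5, and the summed level of the group was between 15210 and 18310 FPKM in WS libraries and between 954 and 1219 FPKM in CT libraries. Dehydrin DHN1 (Zm00001eb285360, chromosome 6, 148134643 to 148135795), a hydrophilic protein that binds membranes and other proteins in dry cells, had the largest log2 difference of any annotated gene with a protein name. It had 7437, 7333 and 9418 FPKM in WS libraries, against 0.950, 0.822 and 20.9 FPKM in CT libraries (log2 difference 10.87, SE 0.92, adjusted p 0.00042). CT replicate 3 stood apart from the other CT libraries for this gene, and without it the log2 difference was 12.05. DHN1 alone made up 1.31%, 1.25% and 1.55% of the summed FPKM of the WS libraries.

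The group 3 LEA protein Zm00001eb294480 (chromosome 6, 173472907 to 173474198) had 1776, 2327 and 2581 FPKM under WS and 4.84, 0.622 and 5.01 FPKM under CT. Its log2 difference was 9.16 (SE 0.51, adjusted p 8.99e-05), or 8.54 without CT replicate 2. Zm00001eb004470 (chromosome 1, 12338113 to 12339599), named after cotton LEA D-34, was at or near 0 in CT libraries, with at most 0.0417 FPKM, and had 258, 237 and 322 FPKM under WS (8.06, SE 0.14, adjusted p 1.67e-06). Zm00001eb306010 (chromosome 7, 37736078 to 37737449), a membrane protein named after rice PM19L, was likewise near 0 in CT libraries, with at most 0.267 FPKM, and had 333, 487 and 379 FPKM under WS (8.51, SE 0.18). Both genes were thus at 237 FPKM or more in every WS library and barely detected in any CT library. A wider set of 25 tested genes was formed from names of seed, embryo, oil body or late embryogenesis proteins. In this set 19 rose and 4 fell, with a median of 2.60. It includes the group 3 LEA protein, the LEA D-34 gene and the PM19L gene just described. Some TIP aquaporins are also in it, TIP3-1 below among them, so its counts overlap those of other groups. The further genes Em protein H5 (Zm00001eb286150) and EMB564 (Zm00001eb286170) differed by 8.05 and 6.10.

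Not every member of the LEA group rose. Zm00001eb421710 (chromosome 10, 115716195 to 115717839), named after a desiccation protein of a resurrection plant, had 3.98, 6.11 and 5.45 FPKM under WS and 41.8, 80.5 and 75.4 FPKM under CT (log2 difference -3.40, SE 0.27, adjusted p 0.00035). The group also takes in NDR1/HIN1-like proteins, which share a domain with LEA proteins and are known from defence. Of 17 genes with that name, 2 rose and 4 fell.

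Chaperones rose in large number as well. In the group of small heat shock proteins 18 of 33 rose and 6 fell, with a median of 1.56. Classes I to III, which work in the cytosol, had 10 of 13 members higher, 1 lower and a median of 3.66. Zm00001eb124960 (chromosome 3, 20587711 to 20588602), a 16.9 kDa class I protein, had 32.2, 67.5 and 39.8 FPKM under WS and 0.586, 0.0634 and 0.102 FPKM under CT (log2 difference 5.20, SE 0.30, adjusted p 0.000111). It belongs to a cluster of similar genes among which the counting may have split reads. The most abundant class I gene at CT, the further gene Zm00001eb011900, overlapped between groups, with between 71.8 and 149 FPKM under WS and between 100.4 and 104 FPKM under CT. A chloroplast small heat shock protein, Zm00001eb026680, was lower, with 9.36, 6.89 and 7.01 FPKM under WS and 52.0, 36.7 and 37.9 FPKM under CT (-2.30).

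Large chaperones and their partners had 21 of 62 members higher and 2 lower, and their sum was between 4102 and 4274 FPKM under WS and between 1768 and 2296 FPKM under CT. Zm00001eb397600 (chromosome 9, 145591040 to 145594173), a 70 kDa heat shock cognate, had 314, 312 and 384 FPKM under WS, against 0.375, 0.637 and 0.820 FPKM under CT (log2 difference 7.71, SE 0.15, adjusted p 1.99e-06). HSP101 (Zm00001eb293780, ClpB1 of rice), which pulls aggregated proteins apart, had 22.9, 22.4 and 25.8 FPKM under WS and at most 0.222 FPKM under CT (4.48, SE 0.15, adjusted p 1.28e-05). Of the heat stress factors, a family in which some members switch such genes on, 10 of 27 rose and 0 fell, with a median of 0.73. Zm00001eb239380 (chromosome 5, 153226459 to 153227964), a class C factor, had 114, 132 and 124 FPKM under WS and 3.105, 4.21 and 2.55 FPKM under CT (4.88, SE 0.16, adjusted p 1.15e-05), and 4 of 5 class C factors rose.

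**Figure D3:**
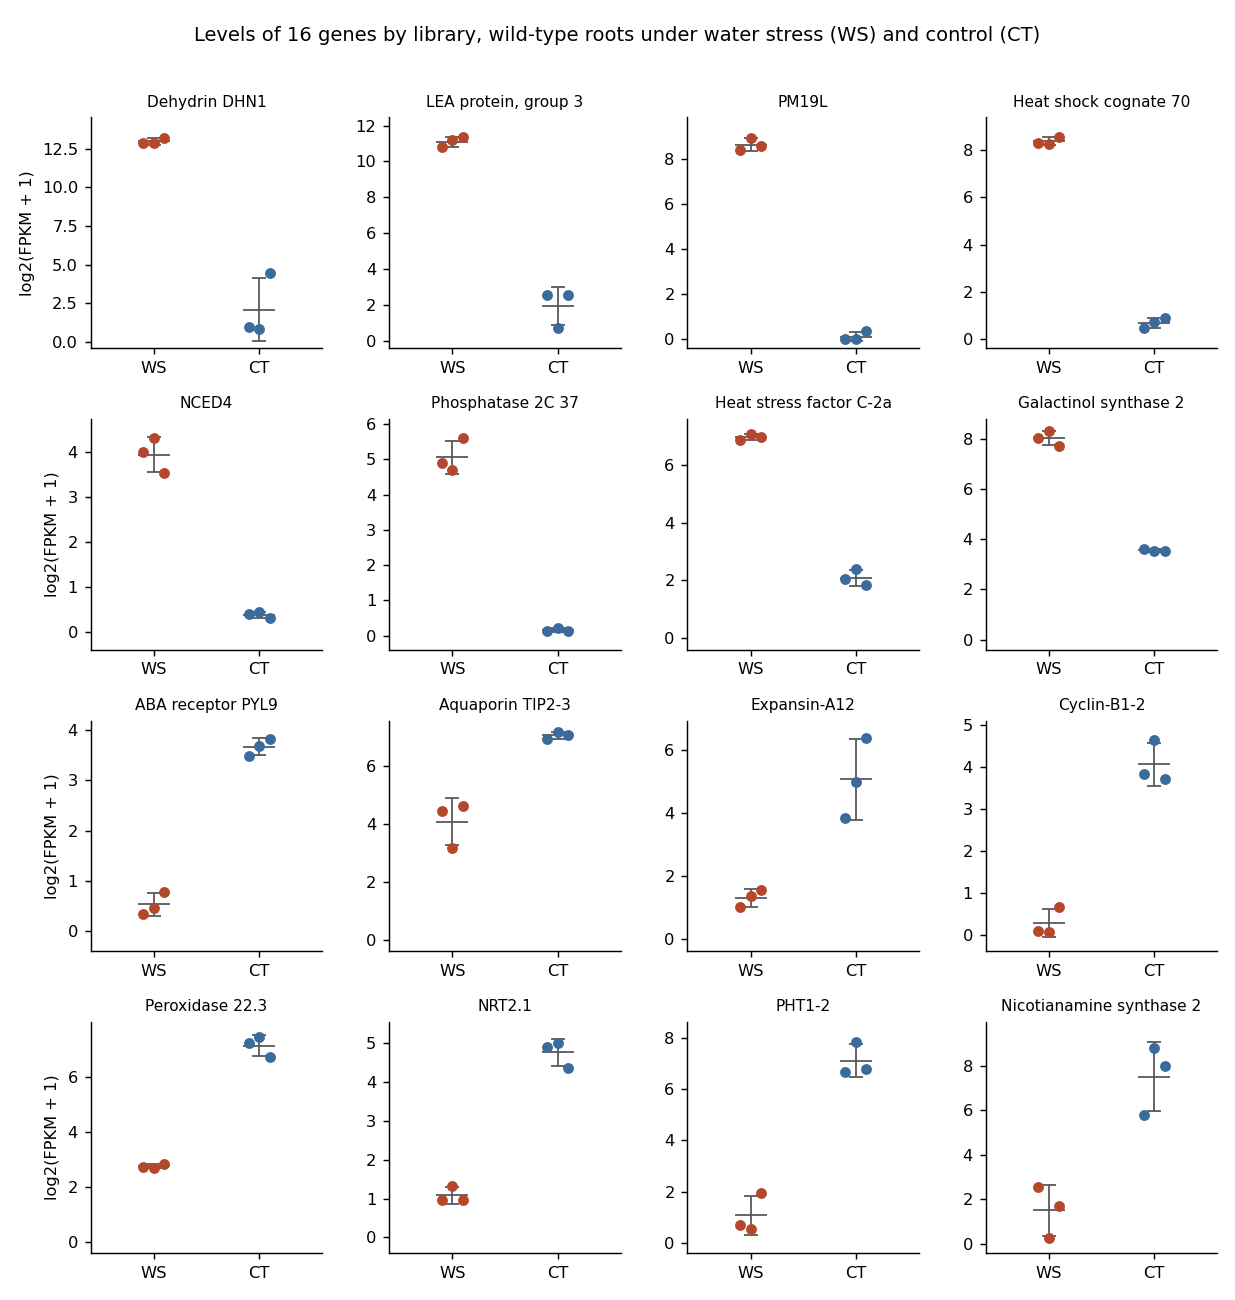
Levels of 16 genes in each WT library as log2(FPKM + 1), WS left of CT, with points for the 3 libraries of a group and the mean with its SD as bars. All 16 genes were chosen by a rule that required WS and CT libraries not to overlap, so the lack of overlap is no result. CT replicate 3 of DHN1 and WS replicate 2 of nicotianamine synthase 2 lie apart from the rest of their groups.

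Metallothioneins, cysteine-rich proteins that bind metals and radicals, rose in 3 of 4 members, in the group of antioxidant enzymes that had 10 of 51 higher and 3 lower, or 1 lower without CT replicate 3. Zm00001eb124800 (chromosome 3, 19859912 to 19860791) had 3229, 3062 and 5142 FPKM in WS libraries, against 55.6, 31.4 and 27.2 FPKM in CT libraries (log2 difference 6.64, SE 0.34, adjusted p 6.85e-05). Zm00001eb290330 (chromosome 6, 164447845 to 164450866), named after the aldose reductase of barley, had 323, 539 and 364 FPKM under WS and at most 0.407 FPKM under CT (8.48, SE 0.23), though it overlaps another feature. Zm00001eb330430 (chromosome 7, 181720552 to 181722435), a glucosyltransferase named from ginseng, had 279, 308 and 518 FPKM under WS and at most 0.435 FPKM under CT (8.29, SE 0.27).

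Genes for protective solutes did not move as a block. Of 30 tested members of the raffinose, trehalose, proline and betaine group, 4 rose and 13 fell, with a median of -0.58. The raffinose synthases, annotated as galactinol-sucrose galactosyltransferases, were not in this group by name and are counted apart. The 4 rises were those of 2 galactinol synthases, the first step towards raffinose, and 2 P5C synthases of proline synthesis. Galactinol synthase 2 (Zm00001eb395600, chromosome 9, 139898985 to 139900759) had 265, 314 and 212 FPKM under WS and between 10.4 and 11.35 FPKM under CT (log2 difference 4.47, SE 0.16, adjusted p 1.58e-05), and the other tested galactinol synthase was also called higher. Raffinose synthases, the next step, had 3 of 7 members higher and 3 lower, while their sum was between 669 and 813 FPKM under WS and between 244 and 249.6 FPKM under CT. The largest part of that sum in every library was the further gene Zm00001eb303190, which had 626, 761 and 748 FPKM under WS and 135, 129.8 and 121 FPKM under CT. For proline, the further gene Zm00001eb367740, a P5C synthase, had 31.5, 40.8 and 38.2 FPKM under WS and 4.96, 4.06 and 4.26 FPKM under CT (2.80). Proline dehydrogenase 2 (Zm00001eb391720), which breaks proline down, had 1.29, 1.80 and 1.07 FPKM under WS and 11.6, 9.60 and 42.6 FPKM under CT (-2.92, SE 0.52, adjusted p 0.00635), or -2.29 without CT replicate 3. A much more abundant further gene of the same name, Zm00001eb022980, was not called (-1.27, limma adjusted p 0.0594). It had 87.6, 145 and 42.5 FPKM under WS and 186, 159 and 261 FPKM under CT.

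Trehalose genes made up most of the falls, with 6 of 10 trehalose-phosphate synthases and 6 of 11 trehalose-phosphate phosphatases lower and 0 of either higher. Many plant trehalose-phosphate synthases have a regulatory rather than a catalytic part. TPS6 (Zm00001eb178890) had 8.62, 6.17 and 11.7 FPKM under WS and 29.3, 48.6 and 41.0 FPKM under CT (log2 difference -2.06, SE 0.26, adjusted p 0.00187). The further synthase Zm00001eb098910, much more abundant, had 37.5, 34.3 and 57.7 FPKM under WS and 260, 348 and 247 FPKM under CT (-2.71).

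Carbohydrate genes moved in both directions, and members of one family often went opposite ways. Sucrose and starch enzymes had 16 of 60 members higher and 12 lower. Of 6 tested sucrose synthases 2 rose and 2 fell, with a median of -0.65. Their sum overlapped, with between 906 and 1134 FPKM under WS and between 693 and 1210 FPKM under CT. The 2 rises were the further genes Zm00001eb016290 and Zm00001eb016250, neighbouring copies on chromosome 1 named after rice sucrose synthase 4. They had between 223 and 328 FPKM under WS and between 7.30 and 17.4 FPKM under CT, and reads may be split between these copies. Of 8 ADP-glucose pyrophosphorylase genes, which make the glucose donor for starch, 3 rose and 0 fell. The large subunit Zm00001eb296990 (chromosome 6, 178052132 to 178057800) had 111, 84.8 and 137 FPKM under WS and 2.05, 2.39 and 2.31 FPKM under CT (log2 difference 5.08, SE 0.18, adjusted p 1.72e-05). In contrast all 5 tested cell wall invertases, which split sucrose outside the cell, were lower, with a sum of between 88.6 and 119 FPKM under WS and between 245 and 327 FPKM under CT. Beta-amylase 3 (Zm00001eb023950), which degrades starch, was lower as well, with at most 1.71 FPKM under WS and at least 21.7 FPKM under CT (-3.91, SE 0.35).

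SWEET sugar exporters were divided, with 6 of 19 higher and 6 lower. SWEET12 (Zm00001eb016690, chromosome 1, 59332122 to 59335202) had 271, 286 and 200.4 FPKM under WS, against 1.68, 8.14 and 4.12 FPKM under CT (log2 difference 5.64, SE 0.42, adjusted p 0.000267). A further exporter named SWEET13 (Zm00001eb408920) had 79.3, 93.7 and 72.6 FPKM under WS and 255, 349 and 343 FPKM under CT (-1.93). The hexose carrier MST6 (Zm00001eb324180) was lower, with 5.18, 3.38 and 5.30 FPKM under WS and 62.1, 57.1 and 78.9 FPKM under CT (-3.58, SE 0.19, adjusted p 8.54e-05).

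Aquaporins, the water channels of the plasma membrane (PIP) and vacuole (TIP), were mostly lower or not called. Of 33 tested, 14 fell and 2 rose, with a median of -0.71, and the sum was between 1600 and 1962 FPKM under WS and between 4014 and 4235 FPKM under CT. TIP2-3 (Zm00001eb429750, chromosome 10, 141833579 to 141835035) had 21.0, 7.94 and 23.8 FPKM under WS and 123, 143 and 133 FPKM under CT (log2 difference -2.98, SE 0.37, adjusted p 0.00175). The further gene TIP1-1 (Zm00001eb003730), the most abundant tested aquaporin described here, had 419, 325 and 534 FPKM under WS and 1242, 1316 and 1619 FPKM under CT (-1.73). Of 13 PIP genes 6 fell and 0 rose, while PIP1-3/PIP1-4 (Zm00001eb186900, a further gene) overlapped, with 277, 310 and 247 FPKM under WS and 283, 271 and 202 FPKM under CT.

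The 2 aquaporins that rose were both of the TIP3 type, which is known from the storage vacuoles of seeds. TIP3-1 (Zm00001eb221090, chromosome 5, 26526932 to 26528305) had 34.5, 23.1 and 132 FPKM under WS and 0.623, 0.359 and 0.386 FPKM under CT (log2 difference 5.06, SE 0.59, adjusted p 0.00137). WS replicate 3 stood above the others, and without it the log2 difference was 4.33.

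**Figure D4:**
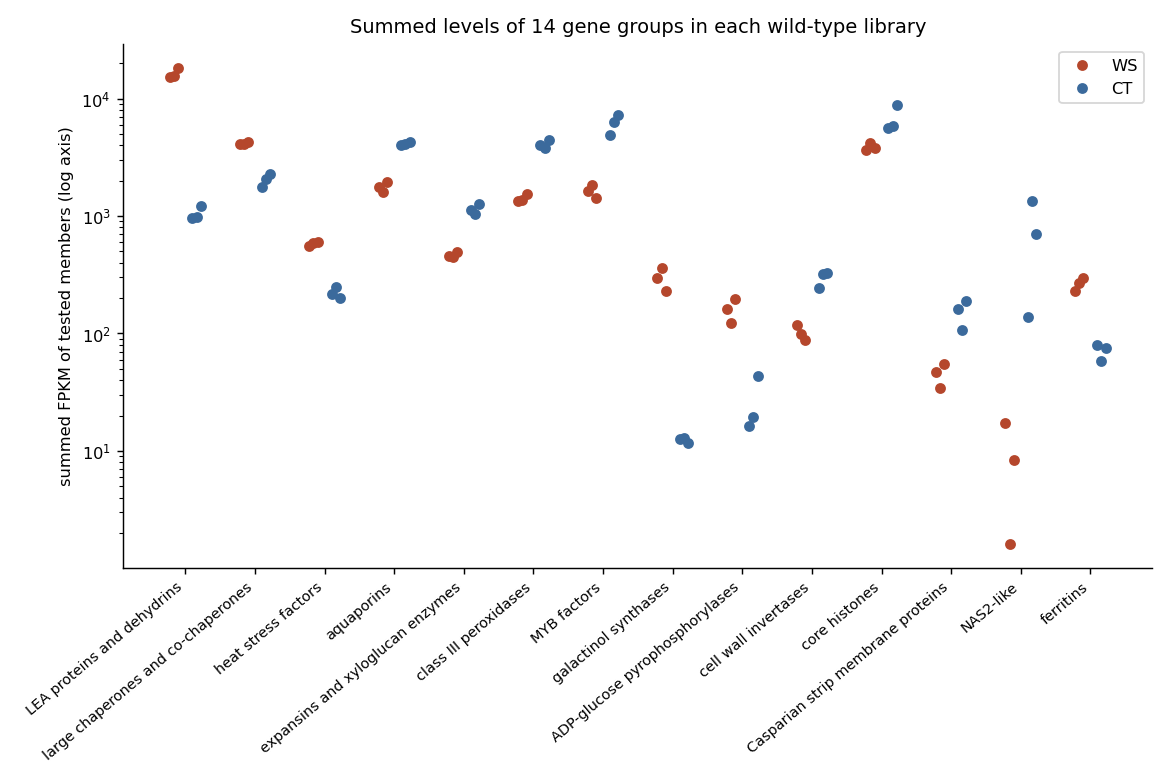
Summed FPKM of the tested members of 14 gene groups in each WT library on a log axis, with WS points left of CT points. LEA proteins reach between 15210 and 18310 FPKM under WS and stay at or under 1219 FPKM under CT, while aquaporins, peroxidases and NAS2-like genes lie lower under WS.

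Genes of cell division were lower where called, with 1 exception. Among histones, cyclins and replication genes 31 of 155 fell and 1 rose, with a median of -0.39, and the falls came mostly from core histones, with 24 of 66 lower, and B-type cyclins, with 6 of 13 lower. The count for the whole group depended on single libraries, being 16 without CT replicate 3 and 37 without CT replicate 1. Cyclin-B1-2 (Zm00001eb303870, chromosome 7, 23218076 to 23219826), a regulator of mitosis, had 0.0587, 0.0512 and 0.575 FPKM under WS and 13.1, 23.9 and 12.2 FPKM under CT (log2 difference -3.79, SE 0.30, adjusted p 0.000326). The meristem markers given above overlap with this group, had 29 of 66 members lower, and their part in these counts was not tested. None of 13 MCM genes, the helicase of DNA replication, was called, and their log2 differences lay between -0.62 and 0.56. Cyclin-D2-2 (Zm00001eb327750), the single member called higher, had 4.59, 5.45 and 4.73 FPKM under WS and 1.49, 1.53 and 2.05 FPKM under CT. Cytosolic ribosomal proteins were nearly all uncalled, with 3 of 298 higher and 4 lower. The 3 became 1 without CT replicate 2, WS replicate 1 or WS replicate 3 and 5 without WS replicate 2, and the 4 became 2 without CT replicate 3.

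Expansins and xyloglucan enzymes, which loosen walls for growth, had 33 of 79 members lower and 3 higher, with a median of -1.02. Of 28 alpha expansins 16 fell and 0 rose. Expansin-A12 (Zm00001eb004260, chromosome 1, 11938116 to 11939457) had 0.993, 1.58 and 1.92 FPKM under WS and 13.1, 30.7 and 82.6 FPKM under CT (log2 difference -3.76, SE 0.60, adjusted p 0.00416), or -3.102 without CT replicate 3. Beta expansins had 9 of 22 lower and 2 higher, and the largest rise was that of Expansin-B12 (Zm00001eb050500), with at most 7.79 FPKM under WS and at most 1.27 FPKM under CT. Cellulose synthesis genes contrasted with these, with 4 of 49 lower, 1 higher and a median of 0.01, and the 4 became 2 without WS replicate 2. The single rise became 2 without WS replicate 1 or WS replicate 2 and 3 without CT replicate 1 or WS replicate 3.

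Class III peroxidases, secreted enzymes that cross-link or loosen wall polymers, had the lowest median of the 46 groups. Of 103 tested, 58 fell and 3 rose (1 without CT replicate 3), with a median of -1.23, and the sum was between 1343 and 1541 FPKM under WS and between 3834 and 4408 FPKM under CT. Peroxidase 22.3 (Zm00001eb330540, chromosome 7, 181831453 to 181833093) had 5.67, 5.50 and 6.14 FPKM under WS and 150.1, 174 and 106 FPKM under CT (log2 difference -4.39, SE 0.19, adjusted p 3.4e-05). The further Peroxidase 1 (Zm00001eb282410) had 52.2, 56.5 and 58.0 FPKM under WS and 478, 506 and 474 FPKM under CT (-3.11). Lichenase-2 (Zm00001eb286760, chromosome 6, 153451995 to 153456515), named after the barley enzyme that cuts mixed-linkage glucan of grass walls, had 15.8, 17.1 and 27.9 FPKM under WS and 793, 868 and 623 FPKM under CT (-5.19, SE 0.24, adjusted p 4.74e-05).

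Genes of the root's apoplastic barriers were lower where called in most cases. The suberin, cutin and Casparian strip group had 28 of 145 members lower and 9 higher, with a median of -0.29. Casparian strip membrane proteins, which mark the endodermis, fell in 6 of 7 members, and their sum was between 34.6 and 54.8 FPKM under WS and between 107 and 191 FPKM under CT. Of 10 genes named after MYB36, a factor that in Arabidopsis directs Casparian strip formation, 5 fell and 0 rose, and the further gene Zm00001eb121290 had 15.03, 13.3 and 11.53 FPKM under WS and 79.3, 128 and 96.7 FPKM under CT (log2 difference -2.82). The fatty acyl-CoA reductase Zm00001eb039570 (chromosome 1, 209819821 to 209822259), of a family that makes alcohols for suberin and wax, had 4.32, 9.24 and 6.42 FPKM under WS and 66.9, 68.1 and 48.2 FPKM under CT (-3.05, SE 0.26, adjusted p 0.00043). The largest rise in the group was that of CASP-like protein 2C1 (Zm00001eb274850), with 7.54, 4.67 and 11.91 FPKM under WS and at most 0.340 FPKM under CT. The Casparian strip membrane proteins are also the endodermis markers of the samples, and the part of the endodermal share in these falls was not tested.

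Nicotianamine synthase 2 genes fell while ferritins rose. In the iron, phytosiderophore and metal group 21 of 65 members were lower and 8 higher, with a median of -0.43. Grasses take up iron as complexes with phytosiderophores, which are made from nicotianamine. All 7 genes named nicotianamine synthase 2 fell, with a median of -4.85. Zm00001eb396110 (chromosome 9, 141355112 to 141356377) had 4.86, 0.217 and 2.26 FPKM under WS and 53.5, 439 and 250.3 FPKM under CT (log2 difference -5.99, SE 0.87, adjusted p 0.00297). The WS and CT libraries did not overlap, which the rule that chose the gene required. The spread within CT was wide, and without CT replicate 1 the log2 difference was -6.86. Its neighbour Zm00001eb396120, 1 of the 6 largest falls, had 3.73, 0.0707 and 1.29 FPKM under WS and 33.4, 293 and 141 FPKM under CT (-5.64, or -6.50 without CT replicate 1). These are similar copies, so reads may be split among them and the 7 falls are not independent.

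Later steps of the same route went both ways. Deoxymugineic acid synthases, which complete the phytosiderophore, had 2 of 5 members higher and 1 lower, with a median of 0.85. Their sum, however, was between 54.7 and 74.5 FPKM under WS and between 55.2 and 147.5 FPKM under CT. Of 4 nicotianamine aminotransferases 3 were lower and 0 higher, with a sum of between 169 and 230 FPKM under WS and between 360 and 894 FPKM under CT. Lower were the further genes nicotianamine aminotransferase 1 (Zm00001eb203230), the uptake transporter yellow stripe 1 (Zm00001eb249020) and the iron transporter IRT1 of rice (Zm00001eb052440), with log2 differences of -4.61, -4.10 and -4.63. IRO2 (Zm00001eb362800), a further gene that in rice switches on this route, had 7.14, 3.87 and 5.61 FPKM under WS and 34.01, 185 and 112 FPKM under CT (-3.82, or -4.51 without CT replicate 1). Genes named nicotianamine synthase 3, a type linked in grasses to iron moving inside the plant, went the other way, with 2 of 4 higher and 0 lower. Both tested ferritins, the iron stores of plastids, rose, and the further gene Ferritin-1 (Zm00001eb195010) had 198, 227 and 256 FPKM under WS and 68.8, 47.4 and 65.1 FPKM under CT (1.90).

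Carriers of the other nutrients were split. Of 8 tested NRT2 and NAR2 genes of high-affinity nitrate transport 4 were lower and 1 higher, and of 10 PHT1 phosphate transporters 3 were lower and 1 higher. Nitrate and ammonium transporters had 14 of 63 members lower and 6 higher. NRT2.1 (Zm00001eb209690, chromosome 4, 248944987 to 248947711) had 0.946, 1.51 and 0.945 FPKM under WS and 29.3, 31.5 and 19.6 FPKM under CT (log2 difference -3.69, SE 0.22, adjusted p 0.000122). Its partner protein NAR2 (Zm00001eb246140, a further gene that overlaps an antisense feature) had 102, 144 and 68.8 FPKM under WS and 372, 483 and 418 FPKM under CT. None of 6 ammonium transporters was called, with log2 differences between -0.85 and 0.35. The largest rise in the group was that of NRT1/PTR 7.3 (Zm00001eb189000), a family member that in Arabidopsis loads nitrate into the xylem, with 16.5, 18.5 and 14.6 FPKM under WS and at most 0.0954 FPKM under CT (4.04, SE 0.15).

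In nitrogen assimilation 8 of 29 members fell and 5 rose, and isoforms of glutamine synthetase parted. The root isozyme 2 (Zm00001eb054990, chromosome 1, 274482670 to 274485802) had 178, 193 and 179 FPKM under WS and 10.8, 18.7 and 21.0 FPKM under CT (log2 difference 3.42, SE 0.24, adjusted p 0.000199). The root isozyme 1 (Zm00001eb009090, a further gene) had 194, 209 and 129 FPKM under WS and 333, 502 and 350.2 FPKM under CT (-1.16), and its size fell under the threshold without WS replicate 3 (-0.94). Glutamate dehydrogenase (Zm00001eb060520) was lower, with between 24.0 and 26.9 FPKM under WS and between 111 and 146 FPKM under CT (-2.28, SE 0.13).

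Phosphate and sulfate supply had 14 of 57 members lower and 6 higher. The phosphate transporter PHT1-2 (Zm00001eb004100, chromosome 1, 11304260 to 11306250) had the largest fall of all annotated genes with a protein name. It had 0.608, 0.460 and 2.89 FPKM under WS and 102, 232 and 111 FPKM under CT (log2 difference -6.05, SE 0.46, adjusted p 0.000293). PHT1-4 (Zm00001eb087690) went the other way, with 5.78, 4.92 and 13.0 FPKM under WS and at most 0.0598 FPKM under CT (3.02, SE 0.32).

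Defence genes were split, and WS replicate 3 stood apart for several of them. Pathogenesis proteins, chitinases and protease inhibitors had 21 of 144 members higher and 26 lower, with a median of -0.26, while their sum was between 5744 and 14090 FPKM under WS and between 4239 and 4595 FPKM under CT. In 13 of the 21 genes called higher, WS replicate 3 was the highest WS library. The thaumatin-like protein Zm00001eb150050 (chromosome 3, 191894868 to 191895885) had 605, 299 and 2336 FPKM under WS and 11.3, 8.20 and 7.69 FPKM under CT (log2 difference 6.24, SE 0.69, adjusted p 0.0011), or 5.42 without WS replicate 3. The further gene Endochitinase A (Zm00001eb078730) had 1931, 1749 and 4680 FPKM under WS and 275, 295 and 257 FPKM under CT (3.19). The defensin-like CAL1 (Zm00001eb247810) was lower, with 1.298, 1.32 and 4.11 FPKM under WS and 25.4, 28.5 and 196 FPKM under CT (-4.16, SE 0.79, adjusted p 0.00806), or -3.22 without CT replicate 3.

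Among secondary compounds, zealexin A1 synthase (Zm00001eb222540), which makes a terpenoid antibiotic of maize, had 54.0, 43.1 and 127 FPKM under WS and 1.42, 2.29 and 0.409 FPKM under CT (log2 difference 4.92, SE 0.47, adjusted p 0.000628). Indole-2-monooxygenase (Zm00001eb420860), an enzyme of benzoxazinoid synthesis, was lower, with 1.36, 0.998 and 1.85 FPKM under WS and 19.1, 19.0 and 11.02 FPKM under CT (-2.83, SE 0.26). Glutathione transferases and cytochromes P450 had 34 of 177 members higher and 27 lower.

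Other hormone groups had calls in both directions. Auxin genes had 11 of 135 members higher (8.15%) and 17 lower (12.6%), with a median of -0.005. These shares were near the 7.47% and 10.3% over all annotated genes. The 17 became 9 without CT replicate 3 and 11 without WS replicate 1. The growth-related SAUR36 (Zm00001eb321140) had 2.002, 1.69 and 2.27 FPKM under WS and 37.7, 24.5 and 29.3 FPKM under CT (log2 difference -3.38). Ethylene genes had 5 of 31 members higher and 2 lower, with 2 higher without CT replicate 3, 3 higher without WS replicate 1 or WS replicate 3, and 1 lower without CT replicate 2. An ACC oxidase (Zm00001eb201390), the last enzyme of ethylene synthesis, had 6.52, 12.3 and 5.81 FPKM under WS and 118, 143 and 50.3 FPKM under CT (-3.44, SE 0.43, adjusted p 0.00177). Jasmonate genes had 12 of 70 members higher and 13 lower, though the 12 became 7 without CT replicate 2. The 23 kDa jasmonate-induced protein (Zm00001eb137370) had 228, 164 and 147 FPKM under WS and 3.50, 2.29 and 2.11 FPKM under CT (5.63, SE 0.21), while lipoxygenase 2.3 (Zm00001eb206040), at the start of jasmonate synthesis, had 2.63, 7.56 and 1.34 FPKM under WS and 58.3, 36.6 and 14.9 FPKM under CT (-2.98).

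Photosynthesis genes, expressed at low levels in these roots, had 16 of 38 tested members lower and 3 higher, with a median of -1.07. Their summed level overlapped, with between 412 and 457 FPKM under WS and between 448 and 478 FPKM under CT. The chlorophyll a-b binding protein Cab4 (Zm00001eb041460), a light-harvesting antenna protein, had 0.628, 0.718 and 0.432 FPKM under WS and 20.4, 15.9 and 17.94 FPKM under CT (log2 difference -3.58, SE 0.16, adjusted p 4.16e-05). The summed leaf markers were higher under WS while 4 of the 17 tested were called lower and 2 higher, and their part in these falls was not tested.

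Strigolactone genes, counted together with genes named after CXE15, had 3 of 23 members higher and 7 lower, with a median of -0.63. CCD7 (Zm00001eb074640), one of the cleavage enzymes of the route, had 6.81, 6.75 and 5.06 FPKM under WS and 1.66, 2.101 and 1.80 FPKM under CT (log2 difference 1.33, SE 0.17, adjusted p 0.00188). By qRT-PCR the study reported weak CCD7 expression and no significant difference between treatments or genotypes, and the cause of this difference from the call was not tested. CCD8 (Zm00001eb153000) was not called, with 10.7, 9.22 and 8.85 FPKM under WS and 5.80, 8.76 and 4.17 FPKM under CT (0.59, SE 0.24, adjusted p 0.0973). The receptor D14 (Zm00001eb007670, a further gene) had 18.8, 28.3 and 24.1 FPKM under WS and 77.8, 109 and 86.1 FPKM under CT (-1.90). Genes named after CXE15, which in Arabidopsis hydrolyses strigolactones, had 5 of 14 lower and 2 higher. The counts and the median of the group therefore rest largely on these genes, which were taken by name only.

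Transcription factor families were taken by protein name, because the family column deposited with the data was broader: of 846 tested genes it put in the ERF family, 13.8% had a protein name of that family. ERF and DREB factors had 24 of 132 members higher and 13 lower, MYB factors 17 of 144 in each direction, NAC factors 11 of 90 higher and 19 lower, WRKY factors 4 of 98 higher and 21 lower, and bHLH factors 4 of 94 higher and 16 lower. The WRKY rises became 10 without WS replicate 3, and the bHLH rises 7 without that library and 2 without either of the other WS libraries. With 1 library left out, the MYB rises lay between 12 and 20 and the MYB falls between 18 and 24. Every such fit thus gave more MYB falls than the 17 of the full fit, so the even split of this family is uncertain. MYB2 (Zm00001eb426280, chromosome 10, 132130383 to 132132508), linked in rice to stress tolerance, had 73.2, 85.5 and 82.0 FPKM under WS and 3.40, 2.94 and 2.103 FPKM under CT (log2 difference 4.42, SE 0.16, adjusted p 1.62e-05). NAC2 (Zm00001eb212120) had 138, 202 and 147 FPKM under WS and 24.0, 18.1 and 13.4 FPKM under CT (3.08, SE 0.24). MYB87 (Zm00001eb154560) was lower, with 1.63, 1.03 and 2.27 FPKM under WS and 42.0, 52.8 and 39.5 FPKM under CT (-4.13, SE 0.21).

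The sum over MYB factors was between 1420 and 1832 FPKM under WS and between 4886 and 7269 FPKM under CT, and 1 abundant gene took a large part of it under CT. The further gene Zm00001eb266370 (chromosome 6, 42757910 to 42760236), named after rice MYBAS2, had 253, 331 and 252 FPKM under WS, against 3019, 4221 and 5196 FPKM under CT (log2 difference -3.87, SE 0.34, adjusted p 0.000473). Its neighbour Zm00001eb266360 with the same name had between 91.8 and 107.7 FPKM under WS and 418, 539.6 and 648 FPKM under CT (-2.39).

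Of 15 genes on the qRT-PCR panel 14 were tested, among them HSP101, TPS6, CCD7 and CCD8 above. Asparagine synthetase ASN3 (Zm00001eb013430) had 17.7, 12.1 and 48.1 FPKM under WS and 138, 67.3 and 137 FPKM under CT (log2 difference -2.26, SE 0.52, adjusted p 0.016), and its call was kept in 3 of 6 fits that left out a library, with -2.81 without WS replicate 3. LBD7 (Zm00001eb051620), named after Arabidopsis LBD37, a repressor of nitrate-responsive genes, had 15.3, 9.26 and 12.1 FPKM under WS and 59.4, 82.7 and 93.2 FPKM under CT (-2.59, SE 0.23). The phytoglobin HB2 (Zm00001eb293010) had 13.0, 11.1 and 7.38 FPKM under WS and 3.62, 4.93 and 3.73 FPKM under CT (1.15, SE 0.23, adjusted p 0.00917), and its size fell just under the threshold in 1 of 6 fits that left out a library. The gene listed as GS2 (Zm00001eb432590), which the annotation names as a lysine demethylase, was called higher (1.14, SE 0.16). WBC33, ROP5, ASN4, HHT1, ROPGEF and the qRT-PCR reference gene were not called, with log2 differences of 0.69, 0.28, -0.32, -0.57, -0.85 and -0.52.

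Setting WS beside 0N, which shares the WT_WS libraries but no CT library, gave 1775 annotated genes higher under WS (7.43%) and 2346 lower (9.83%). LEA proteins had 20 of 41 members higher against 0N and heat stress factors 5 of 27, beside 22 and 10 against CT. Aquaporins had 5 of 33 members lower against 0N, beside 14 against CT, and histones, cyclins and replication genes had 4 of 155 lower against 0N, beside 31 against CT. Because both comparisons use the same WS libraries, their counts are not independent. TIP1-1 (Zm00001eb003730) averaged 426 FPKM under WS, 1392 FPKM under CT and 533 FPKM under 0N, and its log2 difference of WS against 0N was -0.32, beside -1.73 against CT.

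Some nitrogen-related genes lay on opposite sides in the 2 comparisons. LBD7 (Zm00001eb051620, LBD37) averaged 12.2 FPKM under WS, 78.4 FPKM under CT and 1.06 FPKM under 0N, so that WS against 0N gave a log2 difference of 2.67. The phytoglobin GLB1 (Zm00001eb399590) averaged 44.1 FPKM under WS, 141 FPKM under CT and 10.2 FPKM under 0N, and WS against 0N gave 1.99, beside -1.68 against CT. For the strigolactone gene CCD8 (Zm00001eb153000) the WS level lay nearer to CT than to 0N. It averaged 9.58 FPKM under WS, 6.24 FPKM under CT and 60.9 FPKM under 0N, with a log2 difference of WS against 0N of -2.54. In contrast DHN1 (Zm00001eb285360) and NCED4 (Zm00001eb300240) were also higher under WS than under 0N, with log2 differences of 11.94 and 3.04.

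**Figure D5:**
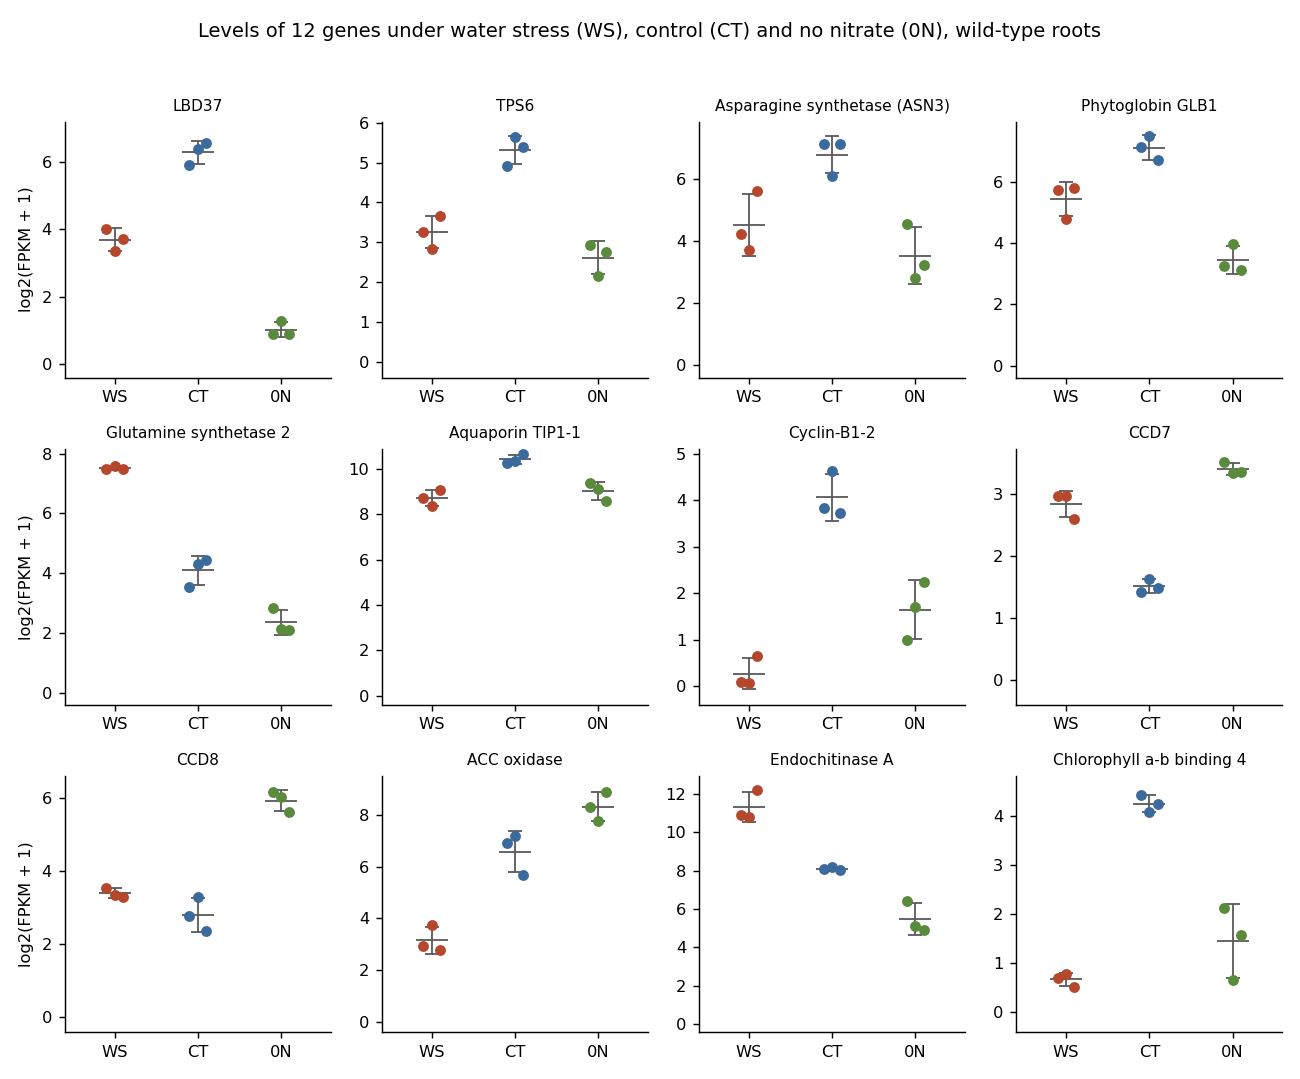
Levels of 12 genes in each WT library under WS, CT and 0N as log2(FPKM + 1), with points for the 3 libraries of a group and the mean with its SD as bars. LBD37, GLB1 and endochitinase A under WS lie above 0N, CCD8 and ACC oxidase under WS lie below 0N, and TIP1-1 under WS overlaps 0N.

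In the mutant *zmccd8* the same contrast gave 1483 annotated genes higher under WS (6.21%) and 2442 lower (10.2%). The targeted gene CCD8 (Zm00001eb153000) still gave reads there, with 27.4, 24.3 and 18.1 FPKM in *zmccd8* WS libraries and 16.6, 5.63 and 8.22 FPKM in *zmccd8* CT libraries, so its level does not check the genotype labels. By qRT-PCR the study could not detect CCD8 transcripts in the mutant, and the cause of this difference was not tested. DHN1 (Zm00001eb285360) differed by 10.79 in the mutant beside 10.87 in WT, PHT1-2 (Zm00001eb004100) by -6.97 beside -6.05, and TIP2-3 (Zm00001eb429750) by -3.56 beside -2.98. A direct test of genotype by WS called 6 of 27530 features (0.0218%) and 1 of the 111 genes chosen by rule, the homeobox factor HOX10, whose call was lost (0 of 111) with a pseudocount of 0.1 and with limma voom on rebuilt reads. At an unadjusted p under 0.05 the test gave 21 of these 111 genes. A missed threshold does not show that the other genes responded alike in both genotypes.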

How the data were processed

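RNA was sequenced from strand-specific polyA libraries of whole roots, 3 per group. Per the submitters' processing notes, fastp, Trimmomatic, HISAT2 2.0.5 and featureCounts of Subread were used. The deposited values are FPKM per feature, computed by the authors, and they already carried a library scaling, since the implied library size divided by the rebuilt read total lay between 0.967 and 1.03 in WT libraries. All rebuilt values were whole within 0.01. The deposited columns of gene descriptions and families were used as labels only.

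Features were kept where 3 or more of 18 libraries reached 1 FPKM. The values were tested as log2(FPKM + 1) with limma 3.58.1 (R 4.3.3, moderated with a mean trend, no replicate block), and p-values were adjusted by Benjamini-Hochberg over all 27530 features. Fold changes are on this scale, which understates changes of low genes. Tables and figures were made with Python 3.11.15, numpy 2.4.6, pandas 2.3.3 and matplotlib 3.10.9. With 3 libraries against 3 the smallest exact permutation p would be 0.1, so single genes rest on the limma fit.

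Tested on simulated data for WS against CT over 27530 features, the fit recovered 39 of 67 genes changed by 1.5 on the log2 scale, 58 of 67 changed by 2 and 61 of 66 changed by 3, with 3 false calls. The changed genes were drawn only from features with a mean log2(FPKM + 1) above 2, and the noise was normal. Recovery of lower genes was therefore not tested, and a smaller share of features was changed than was called in the data. Genes named by rule were, among called genes with a protein name and no overlap between WS and CT libraries, the 6 largest rises and 6 largest falls and the largest rise and fall of each gene group, together with the qRT-PCR panel, 111 in all. Members and gene groups were chosen with earlier results of these data known. Of the features kept, 6653 overlap another on the same strand, where reads may be split. Alternatives were another pseudocount, other filters, limma voom on rebuilt reads, other fits, a replicate block and leaving out each library.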

Additional observations from a re-analysis of the deposited data

Results flagged for a closer look

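The homeobox factor HOX10 (Zm00001eb145820, chromosome 3, 176802728 to 176805378), of a family that in plants patterns vascular and leaf tissue, was the 1 gene of the 111 chosen by rule whose response to WS differed between genotypes by a direct test. It had 0, 0 and 0 FPKM in *zmccd8* WS libraries and 0, 0 and 0.0624 FPKM in *zmccd8* CT libraries. In WT it had 6.32, 3.34 and 5.76 FPKM under WS and 37.1, 46.7 and 36.9 FPKM under CT (log2 difference -2.77). The lack of overlap in WT was required by the rule that chose the gene. The response in *zmccd8* minus that in WT was 2.75 on the log2 scale (limma adjusted p 0.00434). The call was lost with a pseudocount of 0.1 and with limma voom on rebuilt reads, each of which gave 0 genes. The gene was at or near 0 in all 6 *zmccd8* libraries, so it had no level there from which to fall. Groups of 3 libraries are too small for a check of single libraries against the rest of their group, which needs at least 4.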

How the results depend on the processing

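The 4893 features called for WS against CT became 3243 with a mean of at least 5 FPKM required, fewer features being tested, and 10404 by adjusted p alone. For WS against 0N the 4604 became 11486, and for members of gene groups the 1270 became 2139, both by adjusted p alone. The call of HOX10 for genotype by WS was lost with a pseudocount of 0.1 and with limma voom on rebuilt reads, each giving 0 genes, and the cause was not tested. Leaving out 1 library gave between 4421 and 4856 features against CT, between 4050 and 4812 against 0N, and between 1138 and 1252 members of groups. Same-numbered WS and CT libraries did not deviate together (correlations 0.014, -0.0126 and 0.0255), so these values showed no pairing by number. Whether same-numbered pools were grown or handled together is not given by the labels. A fit with the replicate block gave 4829 features against CT, 4467 against 0N and 1266 members.

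Of 104 called genes chosen by rule, 99 kept their call in all 6 fits that left out a library, and all 104 kept it with a pseudocount of 0.1 and with voom. ASN4 (Zm00001eb396990), not called at -0.32, ranged from -0.74 to 0.0459 when 1 library was left out, being above 0 without WT_CT replicate 2 and without WT_WS replicate 2. BHLH6 (Zm00001eb415520) kept its call in 1 of 6 such fits. Of 1472 counts for gene groups, 1333 stayed within 1.5 times. Values well under 1 FPKM rest on few reads.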

Other observations

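The protein domains given here were chosen after their values were seen. Of 21 tested genes with the hydrophobic seed protein domain, a family of small wall-associated proteins, 16 were lower (76.2%), with a median of -2.47 and a sum of between 208 and 391.5 FPKM under WS and between 981 and 1810 FPKM under CT. The cortical cell-delineating protein Zm00001eb249760 had 1.41, 1.28 and 1.20 FPKM under WS and 68.8, 60.7 and 74.1 FPKM under CT (log2 difference -4.90, SE 0.13, limma adjusted p 4.9e-06). Of 28 genes with a dirigent domain 11 were lower and 1 higher, and of 19 pectinesterases 7 were lower and 0 higher.

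Glutathione transferases, counted above together with P450s, were also counted by domain. A gene that carries several of these domains is counted under each, so the sets may share members. Of 18 genes with the N-terminal domain PF13417 7 were higher and 1 lower, of 30 with the N-terminal domain PF02798 7 were higher and 3 lower, and of 17 with the C-terminal domain PF00043 2 were higher and 5 lower. The PF13417 genes had a sum of between 1342 and 1453 FPKM under WS and between 278 and 435 FPKM under CT. The IN2-1 protein (Zm00001eb012920), known in maize as a gene that herbicide safeners induce, had 408.5, 408 and 300.5 FPKM under WS and 44.8, 35.9 and 35.3 FPKM under CT (log2 difference 3.23). Of 39 MatE transporters, which move metabolites and toxins across membranes, 11 were higher and 3 lower.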
